A study of Mus musculus with 12 samples.

Results

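Skeletal muscle takes up glucose, traps it as glucose 6-phosphate, and either stores it as glycogen or passes it down glycolysis to pyruvate and lactate. The transcripts of 37 listed genes for these steps were examined in gastrocnemius, the large calf muscle, and 33 of the 37 were found among the 23185 genes with 1 symbol on the arrays. Members were chosen by name from textbook steps of the pathway, with earlier results of these data known. Each measured member had 1 probe set. Gpi1, Pfkfb1, Gapdh and Eno1 had no matching symbol in the annotation table and are not analysed here. The 33 measured genes comprised 2 hexokinases, 6 genes of the fructose 6-phosphate step and its control, 7 of lower glycolysis, 2 lactate dehydrogenases, 6 of glycogen synthesis, 5 of glycogen breakdown and 5 glycogen regulators.

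Muscle glycogen is built by glycogen synthase on a glycogenin primer and is broken down by glycogen phosphorylase, which phosphorylase kinase switches on during contraction. Phosphofructokinase is the main control point of muscle glycolysis, and hexokinase 2, together with the transporter GLUT4, sets how much insulin-stimulated glucose enters the fibre. Insulin resistance of muscle lowers glucose storage as glycogen, which is why these genes are commonly followed in diabetic animals.

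All 12 mice were of strain BKS.Cg-Dock7m +/+ Leprdb/J, which carries the db mutation of the leptin receptor and becomes obese and diabetic (no lean or uninfected animals are analysed here). The mice were 12 weeks old, and tissue was taken 1 week after injection of adenovirus coding for short hairpin RNA (shRNA), which directs the degradation of a target transcript. Every group received the same total dose in plaque-forming units. For the control group all of it was control shRNA virus. For the LCN13 group it was made up equally of control virus and virus against LCN13, a secreted lipocalin. For the TSC22D4 group it was made up equally of control virus and virus against TSC22D4, a transcriptional regulator. For the TSC22D4+LCN13 group it was made up equally of both target viruses, without control virus. Each group had 7 treated animals, of which 3 were selected as representative for arrays by the submitters, by criteria not given in the sources used here. Arrays are called by animal number, 18 to 20 for control, 21 to 23 for LCN13, 25 to 27 for TSC22D4, and 29, 30 and 32 for TSC22D4+LCN13, and per-array values are given in that order.

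Values are deposited log2 levels, so a difference of 1 is a doubling, and levels of different probe sets cannot be set against each other. The 4 muscle genes Acta1, Ckm, Mb and Myh4 were near the top of the scale on every array, with Acta1 between 13.97 and 14.09 and Myh4 between 13.88 and 14.01. Tsc22d4 was not lower in the muscles of animals given its shRNA virus. It lay between 6.43 and 7.01 over the 12 arrays and differed from control by 0.24 with TSC22D4 shRNA (SE 0.12, limma adjusted p = 0.619). Lcn13, annotated as Obp2a, lay between 4.90 and 4.97. That is close to the lowest level of the table, 4.78, so a fall of Lcn13 could hardly be seen. The groups are therefore named by the virus given. Of the control arrays, 18 stood apart for several members. Leaving it out, a choice made after the data were seen, turned the sign of 6 of 33 differences from control with TSC22D4 shRNA, 4 with LCN13 shRNA and 2 with both viruses, and values that move with it are given both ways.

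Pfkm, the muscle phosphofructokinase, was the only member to differ from control by the test over all genes, and it fell with LCN13 shRNA by 0.25 on the log2 scale. Pgk1, phosphoglycerate kinase, was the only member to differ between 2 virus groups, at 0.37 lower with TSC22D4+LCN13 than with LCN13 shRNA alone. No member passed with TSC22D4 shRNA. Start regions of both genes and of Hk2, which had the largest difference from control that did not pass, are shown here so that the transcripts can be placed in the genome. They are the 250 bases before the annotated start, read on the gene's strand, from RefSeq on build GRCm38.p6, and these genes were chosen after their values were seen. Pgk1 is at chrX:106186850-106187099 on the plus strand, and Hk2 at chr6:82774455-82774704 on the minus strand. Pfkm has 4 annotated starts on the plus strand of chromosome 15, of which those at chr15:98092339-98092588, chr15:98108221-98108470 and chr15:98111810-98112059 are printed, and the window at chr15:98108306-98108555 overlaps the second. Capitals mark ACGTG or its reverse complement CACGT, and where the 2 overlap they read CACGTG.
Pgk1: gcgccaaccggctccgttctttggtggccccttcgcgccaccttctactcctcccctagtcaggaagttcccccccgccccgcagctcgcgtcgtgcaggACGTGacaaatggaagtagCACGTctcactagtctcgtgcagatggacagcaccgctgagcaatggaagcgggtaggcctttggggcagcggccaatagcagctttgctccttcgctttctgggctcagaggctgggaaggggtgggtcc
Hk2: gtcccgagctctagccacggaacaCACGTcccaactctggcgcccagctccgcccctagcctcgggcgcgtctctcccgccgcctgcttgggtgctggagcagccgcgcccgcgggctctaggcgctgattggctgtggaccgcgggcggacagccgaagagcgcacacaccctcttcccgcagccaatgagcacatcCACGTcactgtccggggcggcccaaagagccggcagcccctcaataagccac
Pfkm, the first start: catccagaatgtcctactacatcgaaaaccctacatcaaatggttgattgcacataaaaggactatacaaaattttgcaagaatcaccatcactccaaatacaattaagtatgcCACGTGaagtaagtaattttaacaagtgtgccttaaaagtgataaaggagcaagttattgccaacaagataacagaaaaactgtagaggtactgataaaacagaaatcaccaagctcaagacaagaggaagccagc
Pfkm, the second start: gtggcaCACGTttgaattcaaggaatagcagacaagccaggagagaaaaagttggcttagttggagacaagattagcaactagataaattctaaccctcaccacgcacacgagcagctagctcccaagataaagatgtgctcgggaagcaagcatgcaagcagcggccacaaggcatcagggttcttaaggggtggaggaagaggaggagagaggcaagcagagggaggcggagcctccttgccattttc
Pfkm, the fourth start: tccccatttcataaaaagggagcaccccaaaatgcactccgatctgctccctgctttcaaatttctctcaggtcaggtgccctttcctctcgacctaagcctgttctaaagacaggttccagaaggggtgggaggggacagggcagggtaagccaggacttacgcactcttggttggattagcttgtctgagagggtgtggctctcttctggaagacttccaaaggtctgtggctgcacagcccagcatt
Pgk1 and Hk2 each held 2 matches, the first start of Pfkm 2 that overlap, its second start 1 and the other windows 0. ACGTG is the core of the element that hypoxia-inducible factors bind, a family known to drive glycolytic genes. On either strand it was present in 16.6% of 32851 promoter windows of the table and in 20 of the 45 windows of the measured members (44.4%), which belonged to 16 of the 33 genes. It was 1 of 8 motifs searched on both strands, and was chosen for display after all 8 counts were seen. CACGTG, the E-box that contains it, was in 13.3% of member windows and 6.02% of all windows. AGAACA was in 20% and 16.1%, CACCC in 64.4% and 52%, and GGGCGG in 48.9% and 32.7%. TCAAGGTCA was in 0 of the 45 member windows and 0.387% of all windows, the full glucocorticoid response element in 0 of 45 and 0.00913%, and the MEF2 site in 1 of 45 and 0.508%. The matches are letters in a window only. The arrays do not show which start of Pfkm was used.

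With LCN13 shRNA, Pfkm fell and no other member passed. Over the 33 members the median difference from control was -0.07 on the log2 scale, against 0.00 over all genes tested, and 22 members (66.7%) lay below 0 against 48.8% of all genes. At an adjusted p below 0.05 in limma's moderated test, 1 of 33 members passed, Pfkm, where 0.85% of all genes did. At an unadjusted p below 0.05 the count was 9 of 33, against 12.4% of all genes. All 9 were lower: Hk2, Pfkm, Pfkl, Ugp2, Pgm1, Phka1, Phkb, Phkg1 and Epm2a. In 10 members all 3 LCN13 arrays lay below all 3 controls (30.3%, where 9.02% of all genes did), and in 0 members all 3 lay above (9.74% of all genes). These 10 were Hk2, Pfkm, Pfkl, Pfkfb3, Ugp2, Pgm1, Pygm, Phkb, Phkg1 and Epm2a. Among genes whose mean level was above the median of all genes, a background chosen after the data were seen, the share was 12.8%, and 10 of 32 members were among them. In a fit to those genes alone, 274 of 11592 passed, and Pfkm did not (limma adjusted p = 0.0587). Without control 18, 8 members had an unadjusted p below 0.05 (11% of all genes), 7 of them lower, 22 lay below 0, and the median was -0.08. The 1 member called in that fit was Hk2, where 134 of 23185 genes were called. The members are genes of one pathway measured in the same 6 muscles, so these counts are not independent of each other.

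**Figure D1:**
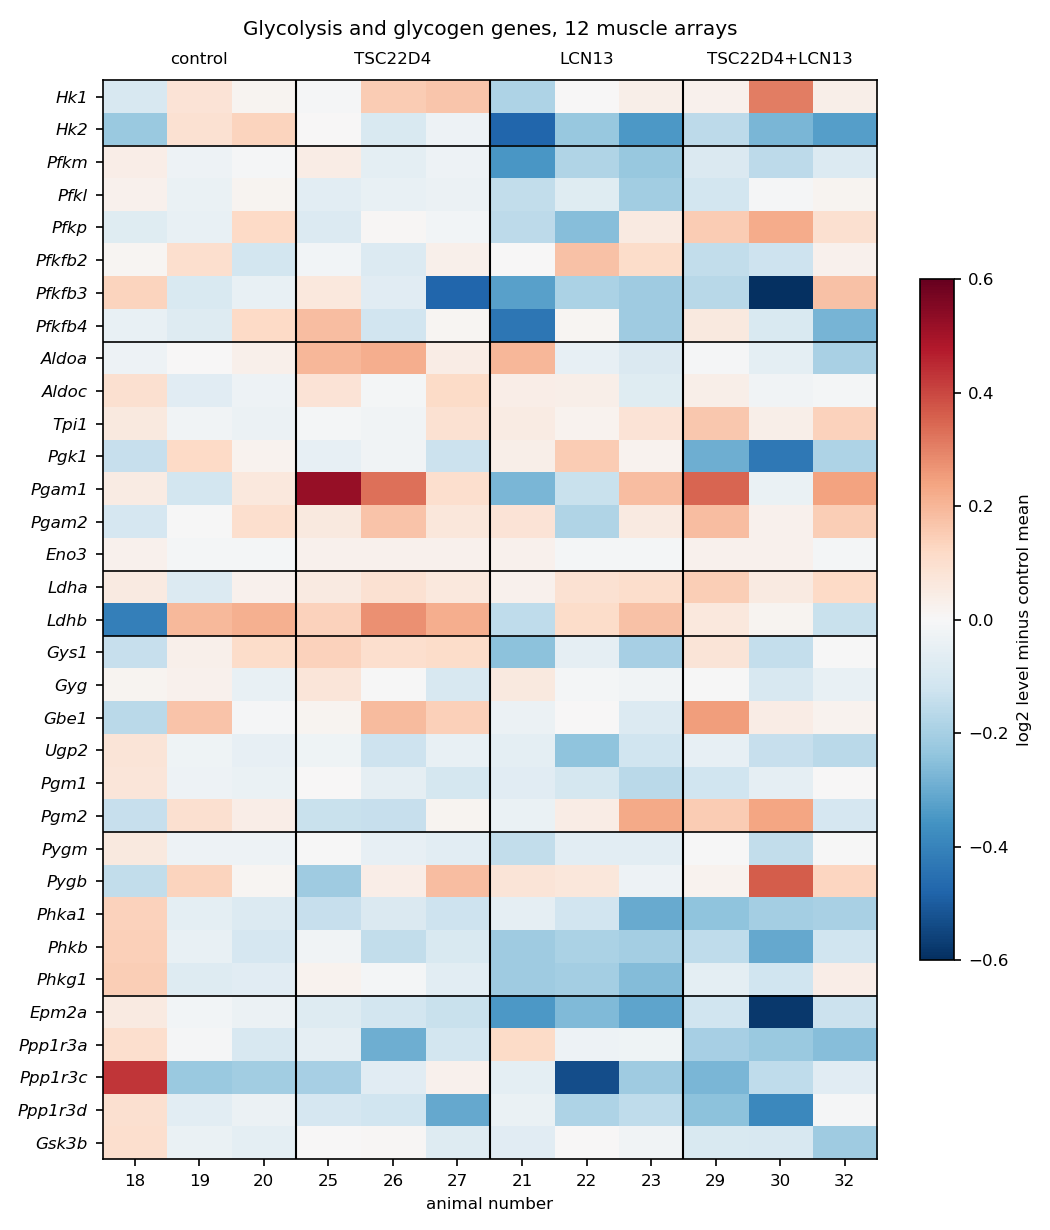
Deviation of each of the 33 measured genes from the control mean (log2, colour) on the 12 arrays (columns, by animal number, in 4 groups), with horizontal lines between roles. The LCN13 columns are blue for Hk2, Pfkm, Phkb, Phkg1 and Epm2a, control 18 departs from the other controls in Ldhb and Ppp1r3c, and TSC22D4+LCN13 array 30 is low for Pfkfb3 and Epm2a.

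Pfkm, which commits fructose 6-phosphate to glycolysis, had levels of 12.98, 12.91 and 12.93 in the controls, 12.59, 12.76 and 12.71 with LCN13 shRNA, 12.98, 12.88 and 12.91 with TSC22D4 shRNA and 12.85, 12.78 and 12.86 with TSC22D4+LCN13 shRNA. The LCN13 arrays were the lowest, and the TSC22D4+LCN13 arrays lay between them and the controls without overlapping either. The TSC22D4 arrays overlapped the controls and reached slightly above and below them. Pfkm fell by 0.25 with LCN13 shRNA (SE 0.05, 95% interval -0.36 to -0.15, limma adjusted p = 0.0429), and linear levels fell by 16.1%. It was also the only member past the F test for any difference among the 4 groups (adjusted p = 0.0419), which 3.33% of all genes passed, while 10 of 33 members had an unadjusted p below 0.05 in that test against 20.8% of all genes. The call for LCN13 shRNA held in 2 of 12 fits with 1 array removed, without LCN13 22 (adjusted p = 0.0381) and without TSC22D4+LCN13 30 (0.0412), and was lost without each of the others, with adjusted p up to 0.151 without control 20. The difference stayed negative in every one of the 22 alternative fits, between -0.29 and -0.17.

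Tendon genes were at higher levels on all 3 LCN13 arrays than on the controls. The mean deviation of Tnmd, Scx, Fmod, Comp, Cilp2 and Chad lay between -1.06 and 0.11 in the controls and between 0.14 and 0.44 with LCN13 shRNA, although 0 of the 6 passed the test. With that score as a covariate, the difference of Pfkm was -0.18 (SE 0.06, adjusted p = 0.683). Over all genes, 20 were called with LCN13 shRNA in that fit, against 197 without the score, so most calls were lost. Slow fibre genes lay between -0.36 and 0.10 in the controls and between -0.18 and 0.29 with LCN13 shRNA, and the difference of Pfkm was -0.26 with them as a covariate (adjusted p = 0.0761). Fast fibre genes stayed between -0.05 and 0.03 over all 12 arrays. Hepatocyte genes, between -0.41 and 0.08 in the controls, reached 1.19 on array LCN13 22, and their part in the result was not tested. In whole muscle, fewer cells of a type and less RNA per cell cannot be told apart.

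**Figure D2:**
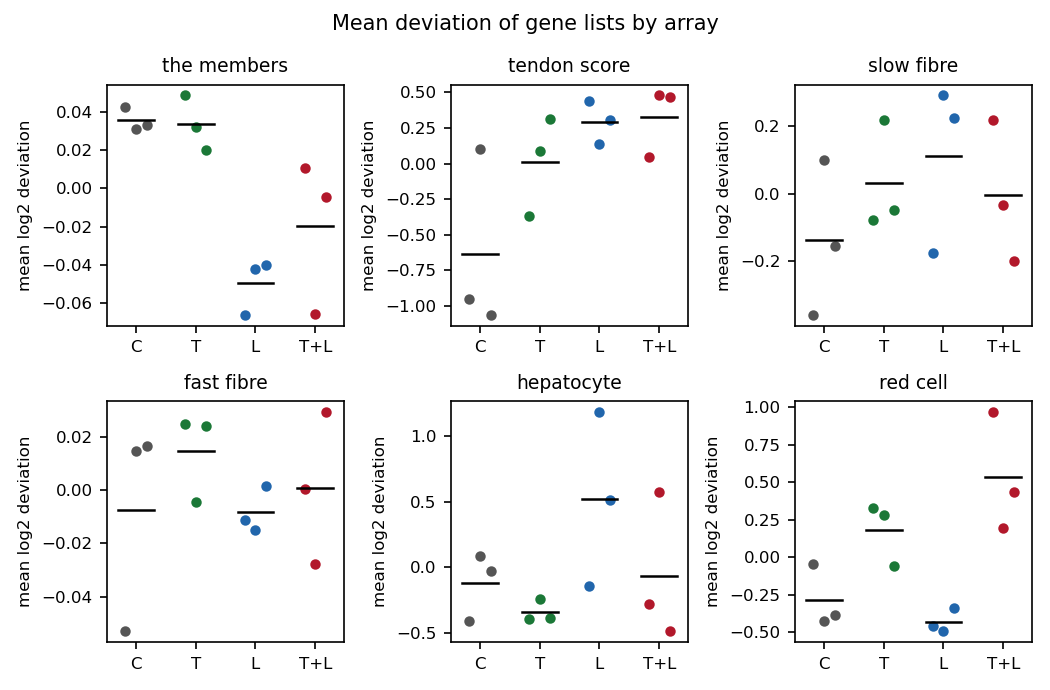
Mean log2 deviation from the 12-array mean of the 33 measured glycolysis and glycogen genes and of 5 marker lists, 1 point per array, with the group mean as a bar (C control, T TSC22D4, L LCN13, T+L both). The glycolysis and glycogen genes lie at -0.07 to -0.04 with LCN13 shRNA against 0.03 to 0.04 in the controls, array TSC22D4+LCN13 30 is as low, and the tendon score is lowest on 2 control arrays.

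The other phosphofructokinase genes had smaller differences. Pfkl, the liver isoform, was 6.07, 6.01 and 6.06 in the controls and 5.90, 5.97 and 5.84 with LCN13 shRNA, a difference of -0.14 with no overlap between the groups (adjusted p = 0.173). Pfkp, the platelet isoform, differed by -0.12 (95% interval -0.29 to 0.06) and its groups overlapped. Pfkfb2, Pfkfb3 and Pfkfb4 make and remove fructose 2,6-bisphosphate, the activator of phosphofructokinase. Pfkfb2 had the highest difference of any member, 0.10 (95% interval -0.05 to 0.25, adjusted p = 0.66). Pfkfb3 had the largest spread of all members (residual SD 0.30), with a difference of -0.24 and an interval from -0.74 to 0.25.

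Hk2, the insulin-responsive hexokinase of muscle, had the largest difference of any member with LCN13 shRNA. Its levels were 10.24, 10.55 and 10.60 in the controls and 9.99, 10.24 and 10.12 with LCN13 shRNA, so the groups do not overlap but control 18 reached down to the highest LCN13 array. The difference was -0.35 (SE 0.09, 95% interval -0.56 to -0.14) and did not pass (adjusted p = 0.142). Without control 18 it was -0.46 and passed (adjusted p = 0.0395), and in that fit Hk2 and not Pfkm was the member called. Hk1, the isoform of most other tissues, differed by -0.05 (95% interval -0.25 to 0.15).

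None of the 16 glycogen genes passed with LCN13 shRNA, where 0.85% of all genes did. An unadjusted p below 0.05 was seen for 3 of 5 breakdown genes, 2 of 6 synthesis genes and 1 of 5 regulators. Over all genes the share was 12.4%. Phosphorylase kinase has a catalytic gamma subunit, Phkg1, and regulatory alpha and beta subunits, Phka1 and Phkb. Phkg1 was 12.16, 11.94 and 11.95 in the controls and 11.80, 11.81 and 11.75 with LCN13 shRNA. All 3 LCN13 arrays were lower, and control 18 was the highest of the 12 arrays. The difference was -0.23 (adjusted p = 0.142), beside -0.20 for Phkb (0.226) and -0.16 for Phka1 (0.394). Without control 18 these differences were -0.15 for Phkg1, -0.13 for Phkb and -0.09 for Phka1. Pygm, the muscle phosphorylase on which this kinase acts, differed by -0.09 (95% interval -0.19 to 0.01), and Pygb, the brain isoform, by 0.04.

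Epm2a, laforin, removes phosphate from glycogen. Its levels were 9.30, 9.23 and 9.21 in the controls, 8.90, 8.98 and 8.93 with LCN13 shRNA, and 9.12, 8.66 and 9.12 with TSC22D4+LCN13 shRNA. The LCN13 arrays lay well below the controls and close together, while array TSC22D4+LCN13 30 stood apart from the other 2 arrays of its group. That array also had the highest adipocyte score of the 12, 0.61, and the highest macrophage score, 0.61, and the part of these in its level was not tested. The difference with LCN13 shRNA was -0.31 (SE 0.10, adjusted p = 0.226), and with that array left out it was -0.31 (SE 0.03) and passed (adjusted p = 0.0043). The TSC22D4 arrays, 9.17, 9.13 and 9.11, also lay below all controls, by less.

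On the synthetic side, Gys1, glycogen synthase of muscle, differed by -0.17 with LCN13 shRNA (95% interval -0.33 to 0.00), or -0.24 without control 18, and its groups overlapped. Ugp2, which makes the UDP-glucose that glycogen synthase uses, differed by -0.14 (adjusted p = 0.311), and Pgm1, which interconverts glucose 1-phosphate and glucose 6-phosphate, by -0.11 (adjusted p = 0.329), both with all 3 LCN13 arrays below the controls. Gyg, the glycogenin primer, and Gbe1, the branching enzyme, differed by 0.01 and -0.04. The enzymes below phosphofructokinase had a median difference of 0.00, from -0.07 for Pgam1 to 0.07 for Pgk1, and the lactate dehydrogenases Ldha and Ldhb differed by 0.07 and 0.05. Without control 18, Ldhb differed by -0.16.

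**Figure D3:**
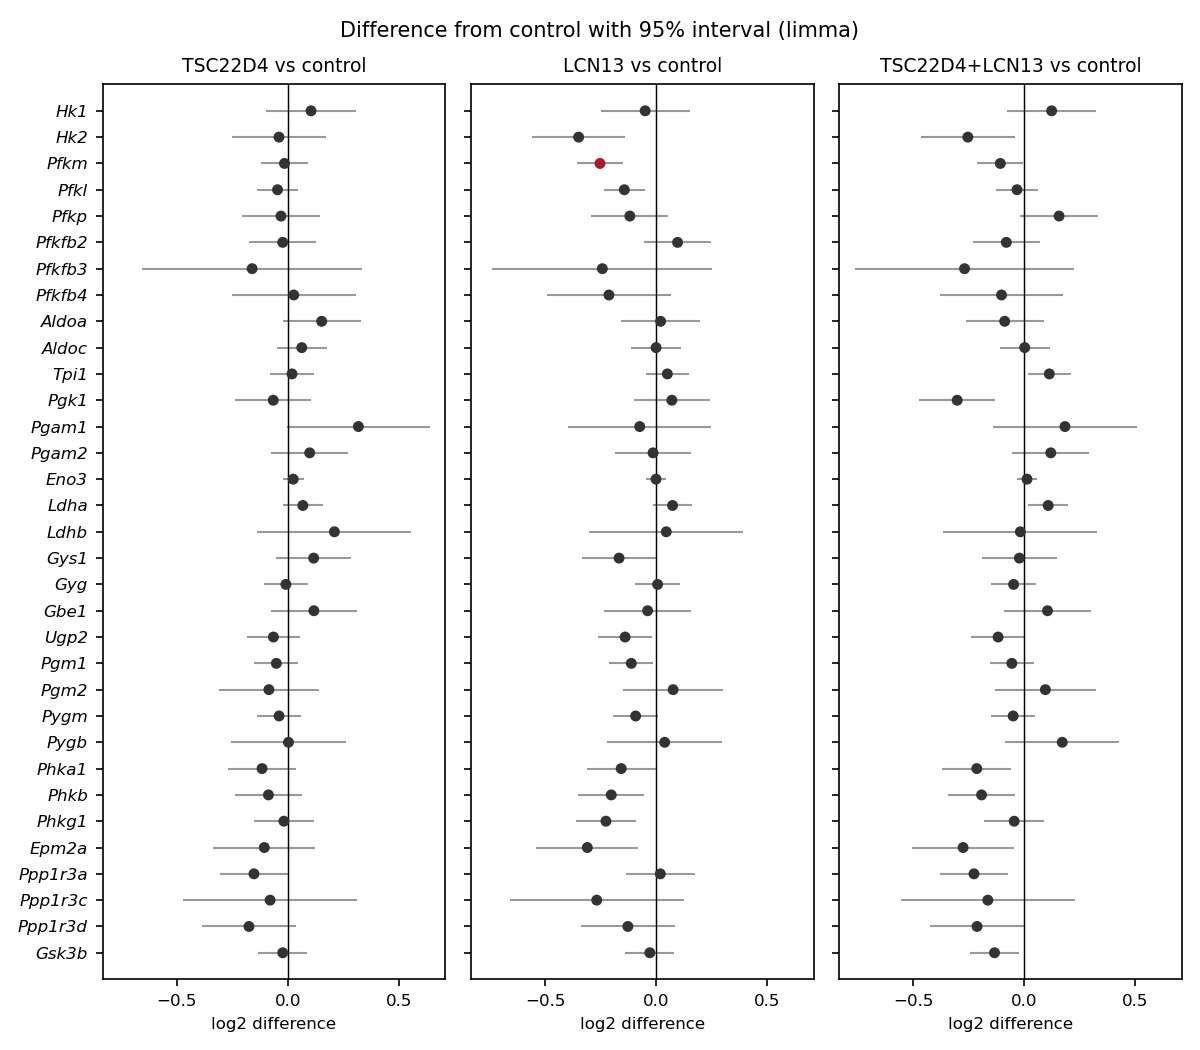
Difference from control of each of the 33 measured genes with its 95% interval (log2, limma, 3 arrays per group), for TSC22D4, LCN13 and TSC22D4+LCN13 shRNA, all set against the same 3 control arrays. The red point marks Pfkm with LCN13 shRNA, at -0.25, the only one past an adjusted p of 0.05, and the widest intervals are those of Pfkfb3.

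With TSC22D4 shRNA alone, none of the 33 members passed at an adjusted p below 0.05, where 0.336% of all genes did, and 0 of 33 had an unadjusted p below 0.05 in limma's test against 9.26% of all genes. The median difference was -0.02 against 0.00 over all genes, with 20 of 33 members below 0. For 30 of the 33 the 95% interval lay within 0.5 of 0 on the log2 scale. The exceptions were Pfkfb3, Ldhb and Pgam1. Pgam1, the phosphoglycerate mutase of non-muscle tissues, had the largest difference at 0.32 (95% interval 0.00 to 0.64, adjusted p = 0.546). Pgam1 was 5.67, 5.51 and 5.69 in the controls and 6.15, 5.96 and 5.73 with TSC22D4 shRNA, which did not overlap but came close. Aldoa, aldolase A, was the other member with all 3 arrays above the controls, at a difference of 0.15, and that count of 2 stands beside 7.8% of all genes. Phka1, Epm2a and Ppp1r3d had all 3 below the controls, 3 of 33 where 9.15% of all genes did. Ppp1r3d, a subunit that targets protein phosphatase 1 to glycogen, had the lowest difference at -0.17. Pfkfb3 differed by -0.16, or -0.09 without control 18. Ppp1r3a had the smallest p of any member (limma unadjusted p = 0.0517, adjusted p = 0.545), at -0.15, or -0.10 without control 18. Ldhb, the heart-type lactate dehydrogenase, differed by 0.21, and its control levels were 10.56, 11.17 and 11.19, the low one being control 18. Without that array Ldhb differed by 0.00, Ppp1r3d by -0.13, and the median over the members was 0.00 with 16 of 33 below 0.

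With TSC22D4+LCN13 shRNA, no member passed against control, and the largest difference was that of Pgk1. At an adjusted p below 0.05, 0 of 33 members passed in limma's test where 4.34% of all genes did, and 11 had an unadjusted p below 0.05 against 20.4% of all genes. Of these 11, Tpi1 and Ldha lay above 0 and the other 9 below. All 3 arrays lay below all 3 controls for 7 members (14.3% of all genes; among genes above the median level 18.3%, with 7 of 32 members), and above them for 0 members (9.48% of all genes). The 7 were Pfkm, Pgk1, Phka1, Phkb, Epm2a, Ppp1r3a and Gsk3b. The median over the members was -0.05, against -0.01 over all genes. The largest rises were those of Pgam1 (0.18), Pygb (0.17) and Pfkp (0.16). They were 0.21, 0.10 and 0.12 without control 18. Without control 18, 7 members had an unadjusted p below 0.05 (17.5% of all genes), 5 of them lower. Hk2 and Pgk1 passed in that fit, where 478 of 23185 genes did. Without array TSC22D4+LCN13 30 the counts were also 7 and 5 (20.5% of all genes), and 0 members passed, where 933 of 23185 genes did.

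Other markers differed between these groups. The 10 genes that define skeletal muscle had a mean deviation between -0.07 and -0.02 with both viruses against 0.00 to 0.03 in the controls, and 2 of the 10 were called lower. Macrophage genes lay between 0.10 and 0.61 against -0.20 to -0.04, with 2 of 9 called higher, and red cell genes between 0.19 and 0.97 against -0.43 to -0.05, with 2 of 5 called higher. The tendon score lay between 0.05 and 0.48, with 0 of 6 called, and 2 of 11 slow fibre genes and 1 of 9 adipocyte genes were called higher. Tendon and slow fibre scores were run as covariates, and the part of the other lists in the members' differences was not tested.

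Pgk1 makes the first ATP of glycolysis. It was 7.98, 8.24 and 8.14 in the controls, 8.07, 8.10 and 7.99 with TSC22D4 shRNA, 8.16, 8.28 and 8.14 with LCN13 shRNA and 7.83, 7.69 and 7.94 with TSC22D4+LCN13 shRNA. The TSC22D4+LCN13 arrays lay below every other array. The controls overlapped both single-virus groups, and every TSC22D4 array lay below every LCN13 array. The difference from control was -0.30 (SE 0.08, adjusted p = 0.0579), just outside the threshold, and -0.37 without control 18 (adjusted p = 0.0411). Of the enzymes next to it in the pathway, Tpi1, triose phosphate isomerase, was 0.11 above control (95% interval 0.01 to 0.21, adjusted p = 0.179), and Pgam2, the muscle phosphoglycerate mutase, 0.12 above (95% interval -0.05 to 0.29).

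The 5 glycogen regulators had a median difference of -0.21 with TSC22D4+LCN13 shRNA, and 0 of the 5 passed. All 5 were below control over the 3 control arrays, but Ppp1r3c turned to 0.05 above it without control 18. Ppp1r3a, the muscle subunit that holds protein phosphatase 1 on glycogen and so favours glycogen synthase activity, was 11.91, 11.81 and 11.72 in the controls and 11.61, 11.59 and 11.56 with TSC22D4+LCN13 shRNA. The groups do not overlap, and the difference was -0.23 (adjusted p = 0.098). Gsk3b, the kinase that inhibits glycogen synthase, differed by -0.13 (adjusted p = 0.159), also without overlap, and by -0.08 without control 18. Ppp1r3a differed by -0.18 without that array. The members of this list therefore include genes of opposite known action on glycogen synthase. Ppp1r3c, another targeting subunit, differed by -0.16 with an interval from -0.56 to 0.23. Control 18 stood at 12.91 and the other controls at 12.26 and 12.27. With LCN13 shRNA Ppp1r3c differed by -0.27 (limma adjusted p = 0.627), and by -0.05 without control 18. Ppp1r3a was also lower than control with TSC22D4 shRNA alone, at -0.15 (limma adjusted p = 0.545). Both viruses against TSC22D4 shRNA gave -0.07 for Ppp1r3a (limma adjusted p = 0.758).

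**Figure D4:**
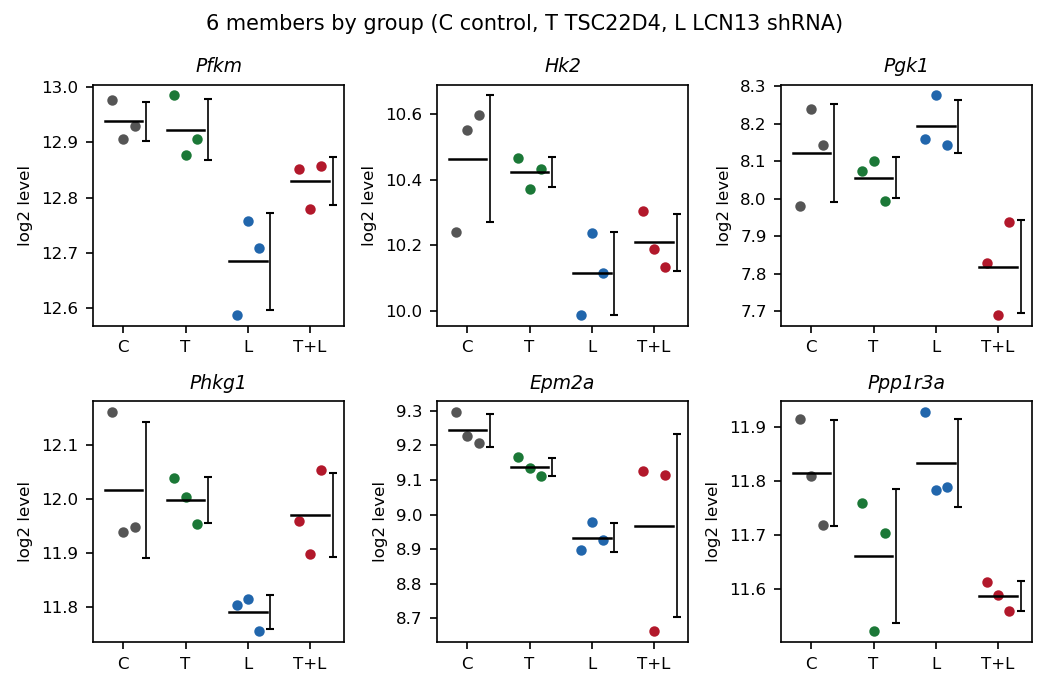
Log2 levels of Pfkm, Hk2, Pgk1, Phkg1, Epm2a and Ppp1r3a on each array (points) with the group mean (bar) and SD (whisker), n = 3 per group. LCN13 arrays are lowest for Pfkm, Phkg1 and, but for array TSC22D4+LCN13 30, Epm2a; TSC22D4+LCN13 arrays are lowest for Pgk1.

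The group with both viruses was also set against each single virus. Against LCN13 shRNA, 1 of 33 members passed, where 4.21% of all genes did, and 7 had an unadjusted p below 0.05 against 20.9% of all genes. The member was Pgk1, at -0.37 (SE 0.08, 95% interval -0.54 to -0.20, limma adjusted p = 0.0311), so that linear levels fell by 22.8%, with all 3 arrays lower. This call was lost without LCN13 21, 22 or 23 and without TSC22D4+LCN13 29 or 30, with adjusted p between 0.0505 and 0.0823. In the same comparison 3 of 5 red cell genes and 1 of 9 macrophage genes were called higher and 2 of 10 skeletal muscle defining genes lower, and their part in the result was not tested. All 3 arrays were lower for Pgk1, Ppp1r3a and Gsk3b, 3 of 33 members against 13.4% of all genes. They were higher for Pfkm, Pfkp, Phkg1 and Gbe1, 4 of 33 against 9.14%. Pfkp was 6.28, 6.36 and 6.23 with both viruses and 5.98, 5.88 and 6.19 with LCN13 shRNA, a difference of 0.27 (adjusted p = 0.0801; 0.36 and 0.0309 without LCN13 23). Pfkm was 0.14 above its LCN13 level (adjusted p = 0.113), and Ppp1r3a 0.25 below, at -0.25 (adjusted p = 0.0776).

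Against TSC22D4 shRNA, 0 of 33 members and 0% of all genes passed in limma's test, and 5 members had an unadjusted p below 0.05 against 10.5% of all genes. Those 5 were Hk2, Aldoa, Pgk1 and Gsk3b, all lower, and Pfkp, which was higher. The largest difference was that of Aldoa, at -0.24 (adjusted p = 0.342), and 25 of 33 members (75.8%) lay below 0 against 53% of all genes. The interaction asks whether adding TSC22D4 virus had a different effect on the LCN13 background than on the control background. It passed for 0 of 33 members in limma's test where 0.125% of all genes passed, and 6 members had an unadjusted p below 0.05 against 9.57% of all genes. The largest were Pgk1 at -0.31 (95% interval -0.55 to -0.07, adjusted p = 0.386) and Pfkp at 0.31 (95% interval 0.06 to 0.55, adjusted p = 0.403). The interaction interval of 26 of the 33 members lay within 0.5 of 0. A different effect of the viruses together was thus not shown for any member.

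The members varied more between muscles of a group than most genes did, with a median residual SD of 0.10 against 0.06 for all genes, and only Aldoc had a mean below the median gene mean of 5.49. Eno3, the muscle enolase, took only the values 14.05 and 14.09 and was the highest gene of the array on 8 of 12 arrays. Equal array distributions leave such a gene no room to rise, and its differences from control of 0.02 or less are read with that limit. Hk1, Pfkl, Pfkp, Aldoc, Pgam1 and Pgm2 had mean levels below 6.5, and no detection call came with the table. Aldoc differed from control by between 0.00 and 0.06, and Pgm2, a phosphomutase related to Pgm1, by between -0.09 and 0.09. Pfkfb4 differed by between -0.21 and 0.03.

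Of 87 further genes listed for glucose transport, glycogen, pyruvate use and their transcriptional control, 78 were measured. These lists too were chosen with earlier results of these data known. With LCN13 shRNA 3 of the 78 fell and 0 rose, where 0.85% of all genes passed. With TSC22D4+LCN13 shRNA 3 fell and 0 rose, where 4.34% of all genes passed. With TSC22D4 shRNA 0 passed in limma's test, where 0.336% of all genes did. An unadjusted p below 0.05 was seen for 10 of the 78 with LCN13 shRNA (12.4% of all genes), 20 with both (20.4%) and 10 with TSC22D4 shRNA (9.26%). Slc2a4, the insulin-responsive transporter GLUT4 that feeds Hk2, was 11.39, 11.50 and 11.43 in the controls and 11.15, 11.25 and 11.14 with LCN13 shRNA. All 3 LCN13 arrays were lower than every array of the other groups, and Slc2a4 fell by 0.26 (SE 0.05, adjusted p = 0.0358). This call held in 9 of 22 alternative fits, 3 of the 12 that left out 1 array among them. It was lost with the tendon score as a covariate, as were most calls over all genes. The difference of Slc2a4 in that fit was -0.31 (SE 0.06, adjusted p = 0.262), larger than without the score.

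Pcx, pyruvate carboxylase, which turns pyruvate into oxaloacetate, was 8.60, 8.30 and 8.31 in the controls, 7.85, 7.74 and 7.57 with LCN13 shRNA, 8.39, 8.22 and 8.15 with TSC22D4 shRNA and 8.22, 8.26 and 8.35 with both. The LCN13 arrays were the lowest, with a gap to all others. Pcx fell by 0.68 with LCN13 shRNA (SE 0.10, adjusted p = 0.0151, passing in 18 of 22 alternatives) and was 0.56 higher with both viruses than with LCN13 shRNA alone (adjusted p = 0.0186). Its interaction was 0.71 and did not pass (adjusted p = 0.126). With the tendon score as a covariate the difference with LCN13 shRNA was -0.58 (SE 0.14) and did not pass (adjusted p = 0.396).

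Klf15, a glucocorticoid-responsive transcription factor that controls glucose and amino acid use in muscle, was 7.61, 7.65 and 7.67 in the controls, 6.70, 7.13 and 7.06 with LCN13 shRNA, 7.31, 7.22 and 7.38 with TSC22D4 shRNA and 7.25, 7.00 and 7.13 with both. All 9 arrays with a target virus lay below the controls. Klf15 fell by 0.68 with LCN13 shRNA (adjusted p = 0.022) and by 0.52 with both (adjusted p = 0.0272), and its difference of -0.34 with TSC22D4 shRNA did not pass (adjusted p = 0.311). Ppargc1a, the coactivator PGC-1alpha, was 10.26, 10.38 and 10.42 in the controls and between 10.60 and 11.15 on all 9 arrays with a target virus. Its differences from control, 0.59 with LCN13 shRNA (adjusted p = 0.0932), 0.44 with both (0.105) and 0.34 with TSC22D4 shRNA (0.481), did not pass. Pck1, the gluconeogenic enzyme PEPCK of liver, kidney and fat, was 5.68, 5.52 and 5.67 in the controls and 6.28, 7.35 and 5.77 with both viruses, a difference of 0.84 that did not pass (adjusted p = 0.191). The high value was on array TSC22D4+LCN13 30.

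Slc2a8, the transporter GLUT8, fell by 0.34 with TSC22D4+LCN13 shRNA (adjusted p = 0.0414), and its arrays were 6.63, 6.61 and 6.28 against 6.85, 6.87 and 6.81 in the controls. Arrdc4, an arrestin-domain protein that lowers glucose uptake, fell by 0.25 (adjusted p = 0.0339), from 8.01, 8.08 and 8.06 to 7.78, 7.75 and 7.87. Both were also below all controls with either single virus, without passing. Nhlrc1, malin, the ubiquitin ligase that partners laforin, was 0.30 higher with both viruses than with LCN13 shRNA (adjusted p = 0.0235). Its levels were 6.17, 6.14 and 6.08 with both viruses and 5.76, 5.87 and 5.87 with LCN13 shRNA, against 5.99, 6.14 and 6.03 in the controls. Every LCN13 array lay below every control, while the group with both viruses overlapped the controls. Calm2 is one of the genes for calmodulin, which is the delta subunit of phosphorylase kinase. It was lower with both viruses than with LCN13 shRNA, at -0.44 (adjusted p = 0.0334). Its levels were 11.07, 11.36 and 11.26 with both viruses and 11.77, 11.57 and 11.67 with LCN13 shRNA. They were 11.44, 11.61 and 11.68 in the controls and 11.16, 11.28 and 11.40 with TSC22D4 shRNA. The arrays with TSC22D4 shRNA alone thus also lay below every control. With LCN13 shRNA the call of Klf15 held in 17 of 22 alternatives. With both viruses the calls against control held in 14 of 21 for Klf15, 11 of 21 for Arrdc4 and 9 of 21 for Slc2a8, and removing 1 array could end each of them. Against LCN13 shRNA they held in 19 of 21 for Pcx, 17 of 21 for Nhlrc1 and 14 of 21 for Calm2.

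**Figure D5:**
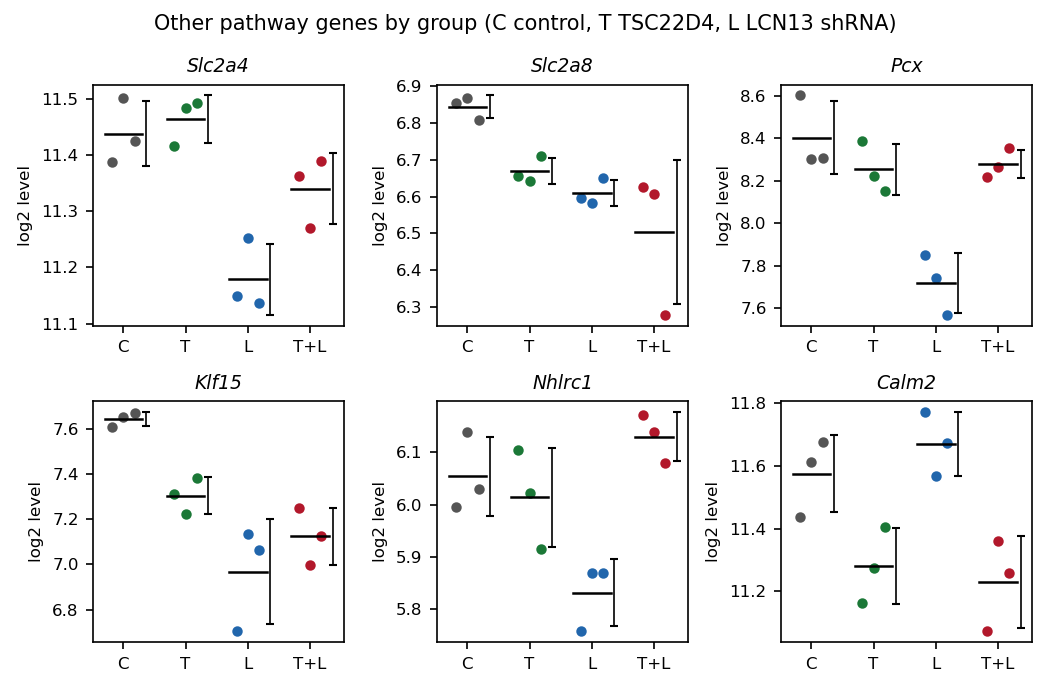
Log2 levels of 6 further pathway genes that passed in at least 1 comparison, on each array (points) with the group mean (bar) and SD (whisker), n = 3 per group. Slc2a4 and Pcx are lowest with LCN13 shRNA, and Klf15 is below control on all 9 arrays with a target virus.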

How the data were processed

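The deposited table holds log2 levels made by the authors with RMA, per the submitters' processing notes, from 1-colour arrays of biotin-labelled gastrocnemius RNA. RMA corrects background, equalises the array distributions and summarises probes on the log2 scale. A general shift of the transcriptome was thereby removed. How probe sets were defined, the RMA version and the probes' build are not stated in the labels or notes. Among 25206 probe sets, 23185 had 1 gene symbol in the platform annotation and 2021 did not. Correlations between arrays lay between 0.990 and 0.998. The number of arrays, 3 per group, limits the precision: the median SE of a member's difference from control was 0.08. No batch or scan date is given, and p-values rest on the spread between the 3 arrayed animals of each group. These animals were selected as representative, and the effect of that choice on the spread was not tested.

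The model had 4 group means over 12 arrays and was fitted across all genes in R 4.3.3 with limma 3.58.1 (lmFit, eBayes), with 8 residual and 1.69 prior degrees of freedom. Tests were two-sided, with Benjamini-Hochberg adjustment over 23185 genes separately in each of 6 comparisons and an F test. The 3 comparisons with control share its 3 arrays. The code was tested on simulated data. The members and all gene lists were chosen with earlier results of these data known. Members were named where they passed or had 3 arrays beyond all controls. Being among the 3 largest rises, falls or smallest p-values of a comparison was a further ground. Not every such value is printed for every comparison. The rest are given briefly so that all are accounted for. Other pathway genes were named where they passed or were among the 3 largest differences. A list score is the mean deviation of its genes from their 12-array means. Alternatives were all probe sets, genes above the median level, trend and robust options, quantile normalization, median centring, array weights, the compared groups alone, tendon and slow fibre scores as covariates, and the removal of each array in turn. An effect averaged over both backgrounds (6 arrays against 6), and counts and member differences without control 18 or TSC22D4+LCN13 30, were added after the data were seen.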

Additional observations from a re-analysis of the deposited data

How the results depend on the processing

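No paired analysis was possible because animal numbers differ between groups. The mean of several probe sets per gene was not run, since every gene had 1. Followed by name were 47 differences picked on the same data. They were members with an unadjusted p below 0.05 and other pathway genes that passed, a choice that favours stable signs. All 47 kept their direction in all 993 alternative values. In 86 of these values a call was lost and in 7 one was gained. Only differences called in the reported analysis could lose a call, so 86 is not to be read as a share of 993. No member passed with TSC22D4 shRNA against control, with both viruses against TSC22D4 shRNA, or in the interaction under any alternative run. Over all 33 members, leaving out control 18 turned 12 of the 99 signs against control, none of a called difference. With LCN13 shRNA against control 1 member was called in the reported analysis, and 0 with genes above the median level, with the compared groups alone, with the tendon score, with the slow fibre score or averaged over both backgrounds; with 1 array left out the count was 0 to 2. With both viruses against LCN13 shRNA the 1 call became 0 with array weights or the compared groups alone and 2 with the slow fibre score, which added Ppp1r3a, and was 0 to 1 with 1 array left out. With both viruses against control the count of 0 became 1 with genes above the median level, and 0 to 2 with 1 array left out, the 2 being Hk2 and Pgk1 without control 18. In the F test the 1 call became 0 with genes above the median level or with the tendon score, and 0 to 2 with 1 array left out. The cause was not tested. Over all genes the number called ranged over these settings from 25 to 1022 with TSC22D4 shRNA (78 as reported), 18 to 340 with LCN13 shRNA (197) and 34 to 1106 with both (1007) against control. Against LCN13 shRNA it ranged from 0 to 1320 (977), against TSC22D4 shRNA from 0 to 2 (0), in the interaction from 2 to 51 (29), and in the F test from 282 to 1072 (773). Differences under about 0.2 on the log2 scale were mostly within the intervals that 3 arrays per group allow.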
